A study of Cavia porcellus with 10 samples.

Results

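The genes described here are ligands and receptors of fibroblast growth factor (FGF), hepatocyte growth factor (HGF) and epidermal growth factor (EGF) receptor signalling in the sclera, the tough outer wall of the eye. The 10 genes were chosen by symbol, as FGF2, FGF7, FGF10, FGF18, FGFR1, FGFR2, FGFR3, HGF, MET and EGFR. Each was found on a single line of a count table with 17642 lines that carry a symbol, and all 10 passed the filter on low counts, as did 14683 genes in all. The table holds RNA-seq counts of scleral tissue from 10 eyes of male guinea pigs (Cavia porcellus). All animals were 2 to 3 weeks old. Those of the myopia group (5 libraries) wore lenses over both eyes to make them nearsighted, and those of the control group (5 libraries) were not treated. The labels give no lens power, no duration of wear and no strain, and give no animal for the eyes, so 2 eyes may come from 1 animal. The p-values below therefore describe variation among libraries, which may be partly technical.

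FGFs are secreted proteins that bind receptor tyrosine kinases (FGFR1 to FGFR4) together with heparan sulfate, and the bound receptors signal through adaptor proteins to the RAS–MAP kinase and PI3 kinase–AKT cascades. HGF, made mainly by mesenchymal cells, acts through the receptor MET, and EGF and its relatives act through EGFR and the other ERBB receptors. Sprouty, SPRED and dual-specificity phosphatase proteins are induced by these cascades and damp them. In chicks, FGF2 injected into the eye has been reported to reduce deprivation myopia, and HGF and MET have been studied as candidate genes for human refractive error.

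Total counts lay between 32309258 and 35430797 per library. The fibroblast markers COL1A1 and DCN (decorin) stood at 35555 ± 3273 and 7616 ± 1950 CPM in myopia and at 82728 ± 9358 and 5690 ± 270 CPM in control (mean ± SD, n = 5 per group; CPM are counts per 1000000, scaled with TMM factors). Ribosomal protein genes held 4.37% to 4.88% of the counts in the myopia libraries and 7.17% to 10.3% in the control libraries, with control 4 (7.77%) and control 5 (7.17%) nearest to myopia. Under edgeR's quasi-likelihood test, adjusted by Benjamini-Hochberg across the whole table, 71.9% of the tested genes had an adjusted p below 0.05, with 36.9% of the tested genes higher and 35.1% lower in myopia. With libraries scaled by total count alone, 73.5% of the calls were higher, against 51.2% with TMM factors, and the median log2 fold change of all genes was 0.48 instead of 0.03. Higher and lower below are therefore relative to the TMM scale. In bulk tissue, fewer cells of a type and less RNA per cell cannot be told apart.

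Of the 10 genes, 8 were higher and 2 lower in the myopic sclera at an adjusted p under 0.05. FGF2, FGF7 and FGF10 rose by 3.36-, 4.23- and 3.49-fold, HGF by 2.24-fold and its receptor MET by 1.89-fold. EGFR, FGFR3 and FGFR2 rose by 1.47-, 1.38- and 1.30-fold. FGF18 fell to 0.522 of its control level, and FGFR1 had a fold of 0.858 whose call did not last under other settings. The share called, 10 of 10, stands beside the 71.9% called among all genes, and the 8 called higher beside 36.9%. Their median log2 fold change was 0.74, against 0.03 over all genes tested, and their median absolute value was 0.93, against 0.71. The 10 genes were chosen with earlier results of these data known, so these comparisons only describe them and are no test of the set. The 2 groups of libraries did not overlap for FGF7, FGF18 and MET, 3 of 10 genes, where 57.8% of all genes tested showed no overlap. FGF7 and MET, 2 of the 10, were higher without overlap, as were 29.8% of all genes tested.

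**Figure D1:**
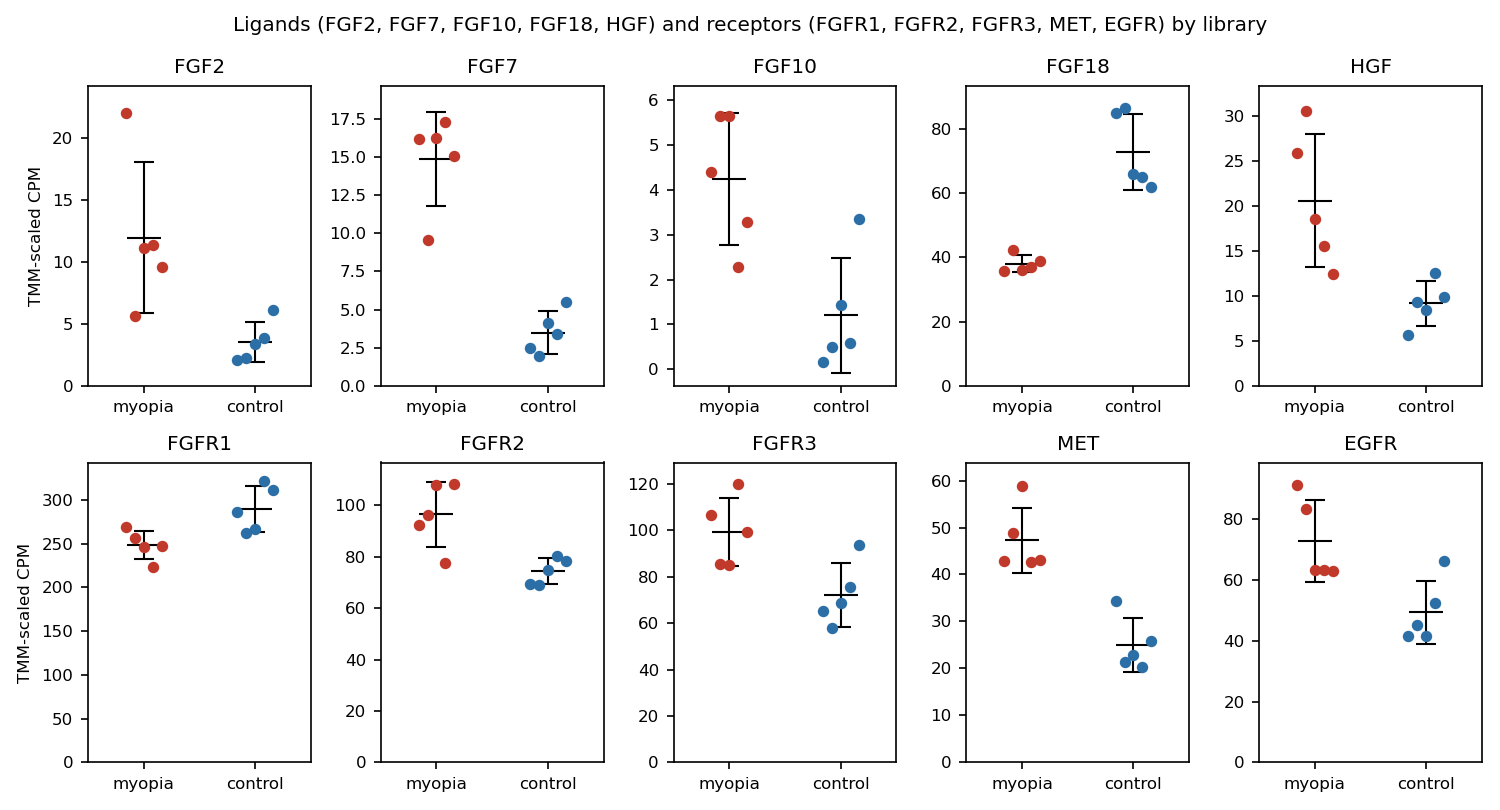
TMM-scaled CPM (y axis) of the 5 ligand genes (top row) and 5 receptor genes (bottom row) in each myopia library (left, red) and control library (right, blue); points run from library 1 to 5 within a group, and bars are the mean ± SD (n = 5). FGF7, FGF18 and MET show no overlap between the groups, while 1 control library of FGF10 (3.34 CPM) reaches into the myopia range.

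Among the ligands, FGF7 showed the highest fold of the 10 genes. FGF7 (keratinocyte growth factor) is made by fibroblasts and acts on the epithelial splice form of FGFR2. It stood at 16.2, 9.55, 16.2, 17.3 and 15.1 CPM in myopia 1 to 5, against 2.49, 1.97, 4.10, 3.41 and 5.52 CPM in control 1 to 5. Every myopia library lay above every control library, although myopia 2 lay well below the other myopia libraries. The log2 fold change was 2.08 ± 0.26 (SE; adjusted p = 9.40e-06), higher than that of 95.2% of all genes tested.

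FGF10, a close relative of FGF7 that binds the same receptor form and is needed for eyelid and lacrimal gland growth in mice, had the fewest reads of the 10 genes. Its raw counts were 169, 200, 220, 93 and 125 in myopia 1 to 5, against 4, 14, 42, 18 and 104 in control 1 to 5. In CPM these were 4.39, 5.64, 5.65, 2.28 and 3.29 in myopia and 0.158, 0.493, 1.43, 0.591 and 3.34 in control. Control 5 thus lay above myopia 4 and myopia 5, and the other control libraries lay below all myopia libraries. The control libraries spread over a 21.2-fold range, against a 2.48-fold range in myopia. FGF10 had a log2 fold change of 1.80 ± 0.59 (SE; adjusted p = 0.0150), and it was 2.66 without control 5 (adjusted p = 0.000213).

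FGF2 (basic FGF), a broadly acting mitogen of fibroblasts and endothelial cells that lacks a classical secretion signal, varied most among the myopic eyes. It stood at 22.03, 5.64, 11.1, 11.3 and 9.56 CPM in myopia 1 to 5, against 2.09, 2.26, 3.35, 3.90 and 6.10 CPM in control 1 to 5. Myopia 1 was the highest library, and myopia 2 fell just below control 5. Its log2 fold change was 1.75 ± 0.37 (SE; adjusted p = 0.000906), and 1.41 without myopia 1 (adjusted p = 0.00169). In other mammals the gene NUDT6 is transcribed from the opposite strand at the FGF2 locus. Reads of the pair could be confused here, since the use of strand is not given in the sources used here. NUDT6, added for that reason, averaged 6.57 ± 1.18 CPM in myopia and 4.45 ± 0.958 CPM in control (SD, n = 5 each). Its log2 fold change was 0.56 ± 0.20 (SE; adjusted p = 0.0201), and 0.49 without myopia 2 (adjusted p = 0.0514). NUDT6 had its lowest myopia value, 4.68 CPM, in myopia 1, where FGF2 was highest. As this is 1 library, it cannot show how reads of the pair were assigned.

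FGF18, which signals mainly through FGFR3 in cartilage and bone growth, was the ligand that went the other way. It stood at 35.7, 42.3, 35.9, 37.1 and 38.8 CPM in myopia 1 to 5, against 84.9, 86.2, 66.0, 65.1 and 61.7 CPM in control 1 to 5. All myopia libraries lay in a narrow band (coefficient of variation 7.10%) below all control libraries (16.2%), and the gap between the groups was 19.5 CPM. FGF18 had a log2 fold change of -0.94 ± 0.11 (SE; adjusted p = 5.98e-06).

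HGF stood at 25.9, 30.6, 18.5, 15.6 and 12.5 CPM in myopia 1 to 5, against 5.64, 9.37, 8.5, 12.6 and 9.86 CPM in control 1 to 5. The highest control library, control 4, lay just above the lowest myopia library, myopia 5, so the groups touched. HGF had a log2 fold change of 1.16 ± 0.25 (SE; adjusted p = 0.00107).

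The receptor MET, a tyrosine kinase found on epithelial and many migrating cells, also rose. MET stood at 43.0, 48.9, 58.8, 42.6 and 43.0 CPM in myopia 1 to 5, against 34.4, 21.5, 22.8, 20.2 and 25.9 CPM in control 1 to 5. Its groups were 8.18 CPM apart, with control 1 nearest to the myopia libraries. MET had a log2 fold change of 0.92 ± 0.15 (SE; adjusted p = 8.09e-05).

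The FGF receptor genes moved less than the ligands and not all the same way. FGFR1, the main FGFR of mesenchymal cells, stood at 269, 256, 247, 224 and 247 CPM in myopia 1 to 5, against 286, 263, 267, 322 and 312 CPM in control 1 to 5. Its groups overlapped, with myopia 1 above control 2 and control 3. Its log2 fold change was -0.22 ± 0.09 (SE; adjusted p = 0.0418). It was 0.22 with scaling by total count (adjusted p = 0.0808), and the call was also lost without control 4 and 5 (-0.12, adjusted p = 0.194), without any of the libraries myopia 2 to 5, control 1, control 4 or control 5, with the replicate block (adjusted p = 0.101), with upper quartile factors (adjusted p = 0.154) and with lines of a symbol summed (adjusted p = 0.0591).

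FGFR2, whose splice forms IIIb and IIIc bind different FGFs, was counted per gene, so the forms cannot be told apart. It stood at 92.4, 96.3, 108, 77.6 and 108 CPM in myopia 1 to 5, against 69.2, 69.2, 74.8, 80.5 and 78.2 CPM in control 1 to 5. Myopia 4 lay within the control range and the other myopia libraries above it. FGFR2 had a log2 fold change of 0.38 ± 0.10 (SE; adjusted p = 0.00405).

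FGFR3, a brake on cartilage growth in mice and humans, stood at 107, 85.5, 85.3, 120 and 99.4 CPM in myopia 1 to 5, against 65.2, 57.8, 68.6, 75.6 and 93.9 CPM in control 1 to 5. Control 5 lay above myopia 2 and myopia 3. Its log2 fold change was 0.46 ± 0.13 (SE; adjusted p = 0.00734).

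EGFR, the receptor of EGF, TGF-alpha and their relatives, stood at 91.3, 83.3, 63.3, 63.1 and 63.1 CPM in myopia 1 to 5, against 41.6, 45.2, 41.6, 52.4 and 66.1 CPM in control 1 to 5. Myopia 1 and 2 lay apart from the other myopia libraries, and control 5 lay above myopia 3, 4 and 5. The log2 fold change was 0.56 ± 0.15 (SE; adjusted p = 0.00437).

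**Figure D2:**
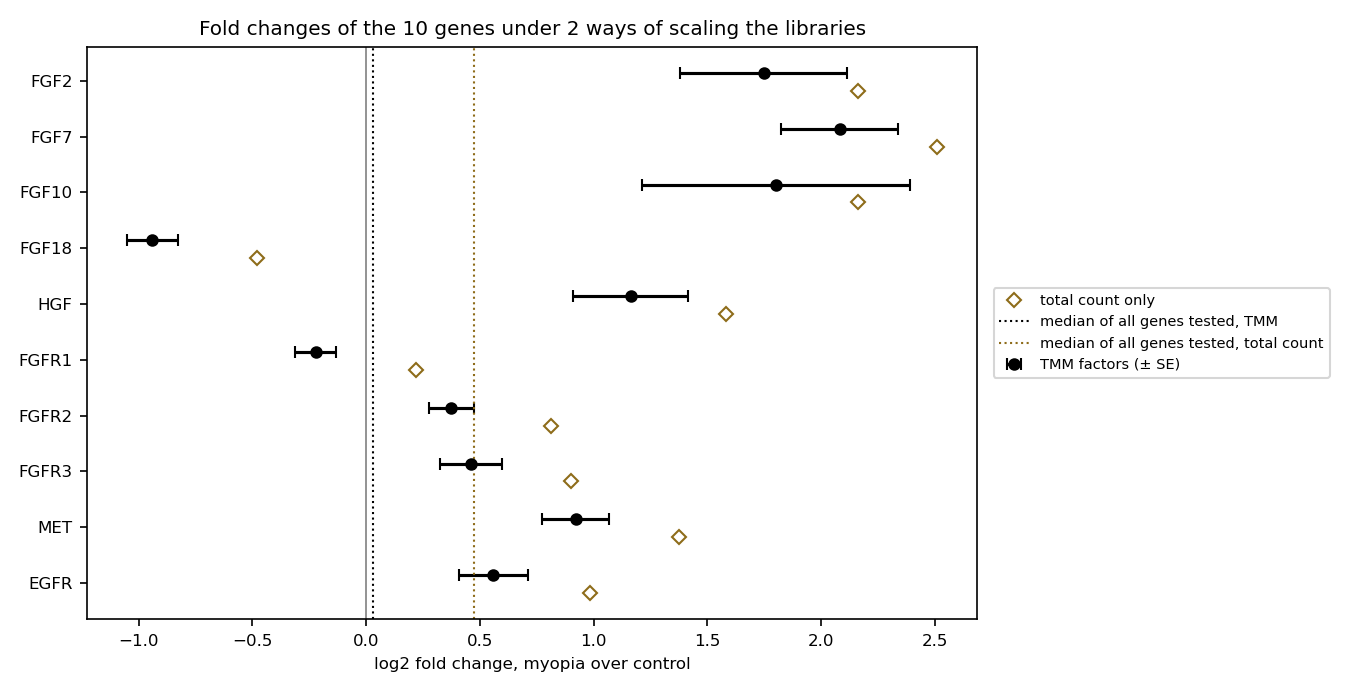
Log2 fold change, myopia over control (x axis), of each gene from the fit with TMM factors (filled circles, bars ± SE, n = 5 libraries per group) and with scaling by total count only (open diamonds); dotted lines mark the median of all genes tested under each scaling (0.03 and 0.48). FGFR1 is the gene of the 10 whose sign turns, from -0.22 to 0.22, and FGF18 stays below 0 at -0.48.

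The untreated eyes also differed among themselves. For FGF2, HGF, FGFR1, FGFR2, FGFR3 and EGFR (6 of 10), control 4 and control 5 both lay above control 1 to 3, and for FGF18 both lay below. Control 5 was the highest control library for FGF2, FGF7, FGF10, FGFR3 and EGFR. These are the libraries with the lowest ribosomal protein shares among the controls, and the part of that difference between libraries in the fold changes was not tested. Without control 4 and 5, FGF2, FGF7, FGF10 and HGF had log2 fold changes of 2.23, 2.39, 2.59 and 1.40, MET, EGFR, FGFR3 and FGFR2 of 0.86, 0.78, 0.65 and 0.45, and FGF18 of -1.05, all with adjusted p under 0.05.

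**Figure D3:**
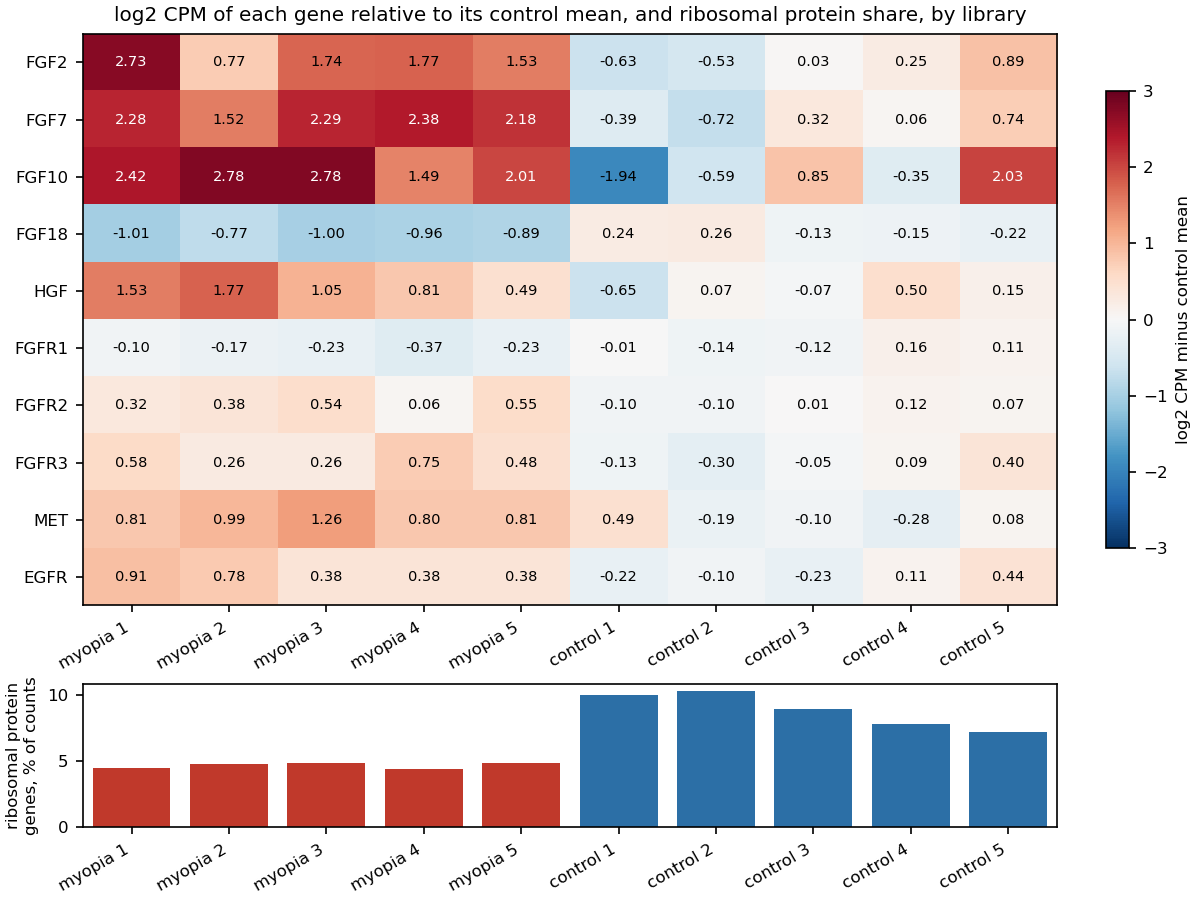
Upper panel: log2 CPM of each gene (rows) in each library (columns, myopia left of control) minus the gene's control mean, printed in the cells and coloured from blue (lower) to red (higher). Lower panel: share of counts from ribosomal protein genes, in percent, 4.37 to 4.88 in myopia and 7.17 to 10.3 in control. Control 5 carries values of 0.89 for FGF2 and 2.03 for FGF10, nearest of the controls to the myopia libraries.

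Ratios of counts within a library do not depend on the scaling. They are not corrected for gene length, so they show a shift between groups and not which gene is more abundant. The log2 ratio of FGFR2 to FGFR1 was -1.54, -1.41, -1.19, -1.53 and -1.19 in myopia 1 to 5, against -2.05, -1.92, -1.83, -2.0 and -1.99 in control 1 to 5. The groups did not overlap, and the means were -1.37 ± 0.17 in myopia and -1.96 ± 0.08 in control (SD, n = 5 each). The difference of 0.59 gave p = 0.00794 in a two-sided exact permutation test, the smallest p that 5 against 5 libraries allow, and p = 0.0119 after Benjamini-Hochberg adjustment over the 3 ratios computed.

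The log2 ratio of FGFR3 to FGFR1 behaved alike, at -1.33, -1.58, -1.53, -0.90 and -1.31 in myopia 1 to 5, against -2.14, -2.18, -1.96, -2.09 and -1.73 in control 1 to 5. Its means were -1.33 ± 0.27 in myopia and -2.02 ± 0.18 in control (SD, n = 5 each), a difference of 0.69 with no overlap (exact permutation p = 0.00794, adjusted p = 0.0119). Relative to FGFR1, reads of FGFR2 and FGFR3 were thus higher in every myopia library than in any control library.

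For MET and HGF no shift in the ratio was found. The log2 ratio of MET to HGF was 1.26 ± 0.52 in myopia and 1.46 ± 0.71 in control (SD, n = 5 each), a difference of -0.20 (exact permutation p = 0.643, adjusted p = 0.643). The libraries ran from 0.68 to 1.78 in myopia and from 0.68 to 2.61 in control, so the groups overlapped, with the wider spread in control. Control 1 held the highest value, and without it the difference was 0.09.

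**Figure D4:**
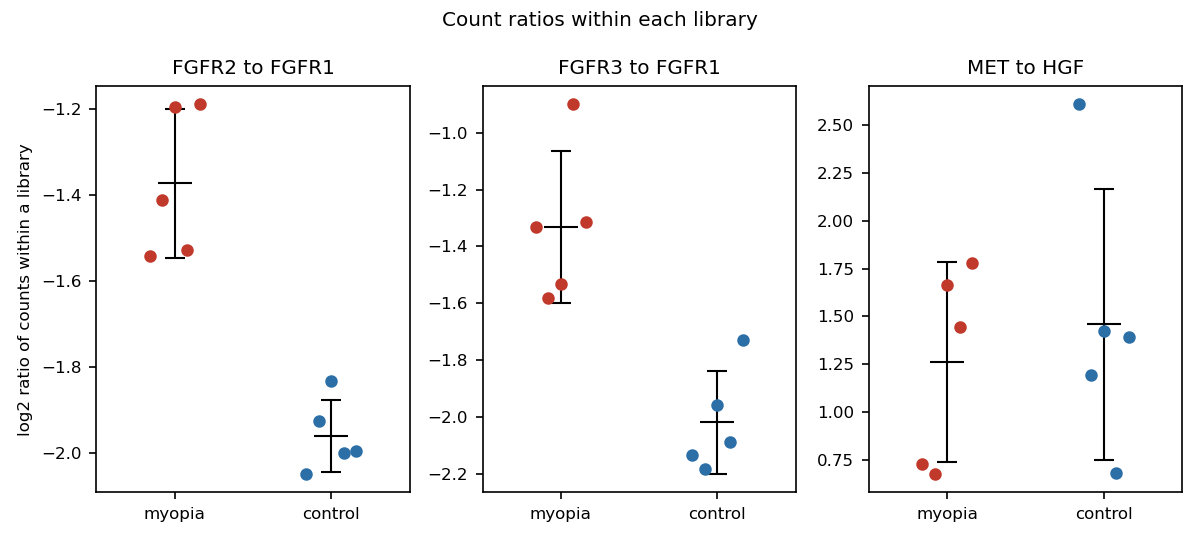
Log2 ratio of counts within each library (y axis; the 3 panels have different ranges) for FGFR2 to FGFR1, FGFR3 to FGFR1 and MET to HGF in myopia (left, red) and control (right, blue); points run from library 1 to 5 and bars are the mean ± SD (n = 5). In the first 2 panels all myopia points lie above all control points, and in the MET to HGF panel the groups overlap.

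Profiles over the 10 libraries were compared by the root mean square difference of log2 CPM after centring each gene on its control mean. Among the 10 genes, FGFR3 and EGFR were nearest to each other (0.25), followed by FGFR2 and FGFR3 (0.28). The nearest other gene in the table was STK16 for FGF18 (0.05), ESYT1 for FGFR1 (0.07), CWC15 for FGFR2 (0.08), Epas1 for FGFR3 (0.08) and Reep1 for EGFR (0.09). It was ATP8A1 for FGF7 (0.22), Hhat for HGF (0.23), Lpcat2 for FGF2 (0.29) and Neto1 for FGF10 (0.53), so these low-count ligands had no neighbour as near as FGFR1, FGFR2, FGFR3 and EGFR had.

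The other genes of the pathways, 119 on the lists and 102 tested, numbered 43 higher, 28 lower and 31 not past the test. The 69.6% of them called stands near the 71.9% called over all genes, and with scaling by total count the split was 56 higher and 9 lower. With that scaling 10384 of all 14683 genes tested passed, 73.5% of them higher, and 2751 genes were lower. The median log2 fold change of the listed genes was 0.24 with TMM factors. Of the FGF ligands outside the 10 genes, 9 were tested, of which 1 rose, 1 fell and 7 did not pass (2 and 0 called with scaling by total count). FGF1 (acidic FGF), which binds all FGF receptors, fell on the log2 scale with -0.58 ± 0.09 (adjusted p = 6.91e-05), to 63.7 ± 5.99 CPM in myopia, against 94.9 ± 8.12 CPM in control. Its value was -0.12 with scaling by total count, which did not pass. FGF13, an intracellular member of the family that does not act on FGF receptors, rose by 0.28 ± 0.09. FGF17 and FGF23 had no reads in any library. Among co-receptors and binding proteins, FLRT3, a membrane protein that binds FGFRs, rose by 1.47 ± 0.19 (13.2 ± 3.46 CPM in myopia and 4.77 ± 0.750 CPM in control). KL (klotho), the co-receptor for FGF23, rose by 1.22 ± 0.38, at 1.26 ± 0.349 CPM in myopia and 0.536 ± 0.238 CPM in control. FGFRL1, an FGF receptor without a kinase domain, fell with -0.35 ± 0.10, and had 0.11 with scaling by total count. The other 4 of the 7 tested members of that list did not pass, and with scaling by total count 3 were called higher and 0 lower.

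In the HGF list of 9 genes, 2 rose, 3 fell and 4 did not pass, against 4 higher and 1 lower with scaling by total count. Beside this stand 36.9% higher and 35.1% lower of all genes tested with TMM factors. MST1R (RON), the receptor related to MET, rose by 0.81 ± 0.11 on the log2 scale (adjusted p = 2.64e-05), to 15.4 ± 1.24 CPM in myopia, against 8.78 ± 0.796 CPM in control. HGFAC, a protease that activates pro-HGF, rose by 1.20 ± 0.34 and stood at 1.62 ± 0.530 CPM in myopia and 0.705 ± 0.200 CPM in control. The protease ST14 (matriptase) and the inhibitors SPINT1 and SPINT2, which block HGF-activating proteases, fell with -1.61 ± 0.47, -0.68 ± 0.21 and -0.37 ± 0.14. With scaling by total count SPINT1 had -0.23, which did not pass. SPINT2 was named after its value was seen. Its value was 0.09 with scaling by total count, and its call ended without myopia 4, myopia 5, control 1 or control 2.

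Of 6 EGF family ligands tested, 3 rose and 3 did not pass, and the higher calls numbered 5 with scaling by total count, 2 with RLE size factors and 1 with the replicate block. The share of all genes tested called with TMM factors was 71.9%, with 36.9% higher and 35.1% lower. BTC (betacellulin) rose by 0.68 ± 0.22 (adjusted p = 0.0128), EGF by 0.53 ± 0.22 (adjusted p = 0.0410) and TGFA by 0.74 ± 0.31 (adjusted p = 0.0480). The calls of EGF and TGFA were near the threshold: that of EGF ended in 7 of 21 other settings, among them leaving out myopia 2, myopia 3, control 1, control 2 or control 3. The call of TGFA ended in 11, among them leaving out myopia 1, 3, 4 or 5 or control 1, 3 or 4. Without myopia 3, EGF had 0.32, and without myopia 4, TGFA had 0.49. The list of other ERBB receptors and ligand release split, with 2 of 7 higher, 4 lower and 1 that did not pass (2 and 1 called with scaling by total count). ERBB3, a receptor for neuregulins, rose by 0.92 ± 0.15 and ERBB4 by 2.21 ± 0.38. ERBB2, the partner receptor that has no ligand of its own, fell with -0.81 ± 0.11, to 63.7 ± 6.19 CPM in myopia, against 111 ± 15.6 CPM in control. ADAM17, a protease that releases EGFR ligands from the cell surface, and its partners RHBDF1 and RHBDF2 fell with -0.70 ± 0.11, -0.58 ± 0.09 and -0.72 ± 0.13. RHBDL2, a rhomboid protease on the same list, had 0.16 ± 0.33 and did not pass (adjusted p = 0.690). With scaling by total count ADAM17, RHBDF1 and RHBDF2 had values of -0.24, -0.12 and -0.26 that did not pass. ERBB4, RHBDF2 and RHBDL2 were named after their values were seen.

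Of 14 receptor adaptors, 9 rose, 3 fell and 2 did not pass (11 and 0 in the calls with scaling by total count). Among all genes tested, 71.9% were called with TMM factors, 36.9% higher and 35.1% lower, and 73.5% of the calls with scaling by total count were higher. FRS2, the docking protein of FGF receptors, rose by 1.55 ± 0.14 (adjusted p = 9.51e-07). It stood at 39.6, 30.2, 32.4, 30.2 and 30.6 CPM in myopia 1 to 5, against 9.74, 9.66, 9.32, 12.1 and 14.7 CPM in control 1 to 5. The RAS exchange factors SOS1 and SOS2 rose by 1.33 ± 0.11 and 1.33 ± 0.16, and GAB1, a docking protein of MET and EGFR, by 0.99 ± 0.10. FRS3, GRB2 and SHC1, named after their values were seen, fell with -0.38 ± 0.12, -0.45 ± 0.07 and -0.31 ± 0.07, and had 0.08, 0.0001 and 0.13 with scaling by total count.

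The 14 genes of the RAS–MAP kinase cascade divided into 7 higher, 6 lower and 1 that did not pass (9 and 3 with scaling by total count). RASA1, which switches RAS off, rose by 1.17 ± 0.08, while HRAS and the kinase MAP2K2 (MEK2) fell with -1.22 ± 0.12 and -1.57 ± 0.15. Of 11 PI3 kinase and AKT genes, 7 rose and 3 fell, under both scalings, where 36.9% of all genes tested were higher and 35.1% lower with TMM factors. The catalytic subunit PIK3CA and the regulatory subunit PIK3R1 rose by 1.41 ± 0.11 and 1.14 ± 0.12, while the regulatory subunit PIK3R2 and the kinases AKT1 and AKT2 fell with -1.08 ± 0.11, -0.72 ± 0.07 and -0.64 ± 0.09. AKT2 was named after its value was seen.

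On the list of feedback inhibitors, 9 of 15 genes rose, 2 fell and 4 did not pass (12 and 0 with scaling by total count). Over all genes tested 71.9% were called with TMM factors, 36.9% higher and 35.1% lower. Scaling by total count gave 73.5% of all calls as higher. The list's median log2 fold change was 0.66. LRIG2 and LRIG3, counted on the list as relatives of the EGFR inhibitor LRIG1, rose by 2.47 ± 0.26 and 1.23 ± 0.13. Whether they inhibit these receptors in the sclera was not tested. IL17RD (SEF), an inhibitor of FGF signalling, rose by 1.91 ± 0.28 and SPRED1, an inhibitor of RAS signalling, by 2.39 ± 0.38. SPRED1 stood at 23.4, 17.5, 19.1, 20.5 and 16.5 CPM in myopia 1 to 5, against 2.53, 1.83, 1.78, 3.81 and 8.51 CPM in control 1 to 5. DUSP5, a MAP kinase phosphatase, and ERRFI1, an EGFR inhibitor, both named after their values were seen, fell with -1.15 ± 0.41 and -0.72 ± 0.23. With scaling by total count neither passed. The call of DUSP5 also ended with the replicate block (adjusted p = 0.09), without myopia 3 or without control 3, where its value was -0.58. That of ERRFI1 ended without control 4 and 5 together.

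Of 10 transcription targets 1 rose, 5 fell and 4 did not pass, where 35.1% of all genes tested were lower. ETV1, a transcription factor of the ETS family, rose by 0.71 ± 0.15. Its relative ETV5, together with MYC and the early-response gene IER3, fell with -0.55 ± 0.13, -0.75 ± 0.16 and -0.97 ± 0.14. CCND1 (cyclin D1) and PHLDA1, named after their values were seen, fell with -0.36 ± 0.13 and -0.42 ± 0.13. With scaling by total count CCND1 had 0.10 and PHLDA1 0.02, and IER3 alone was called lower (1 gene). The call of CCND1 also ended with the replicate block (adjusted p = 0.0574) and without myopia 1, myopia 4, control 1 or control 2. That of PHLDA1 ended without control 4 and 5 together.

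**Figure D5:**
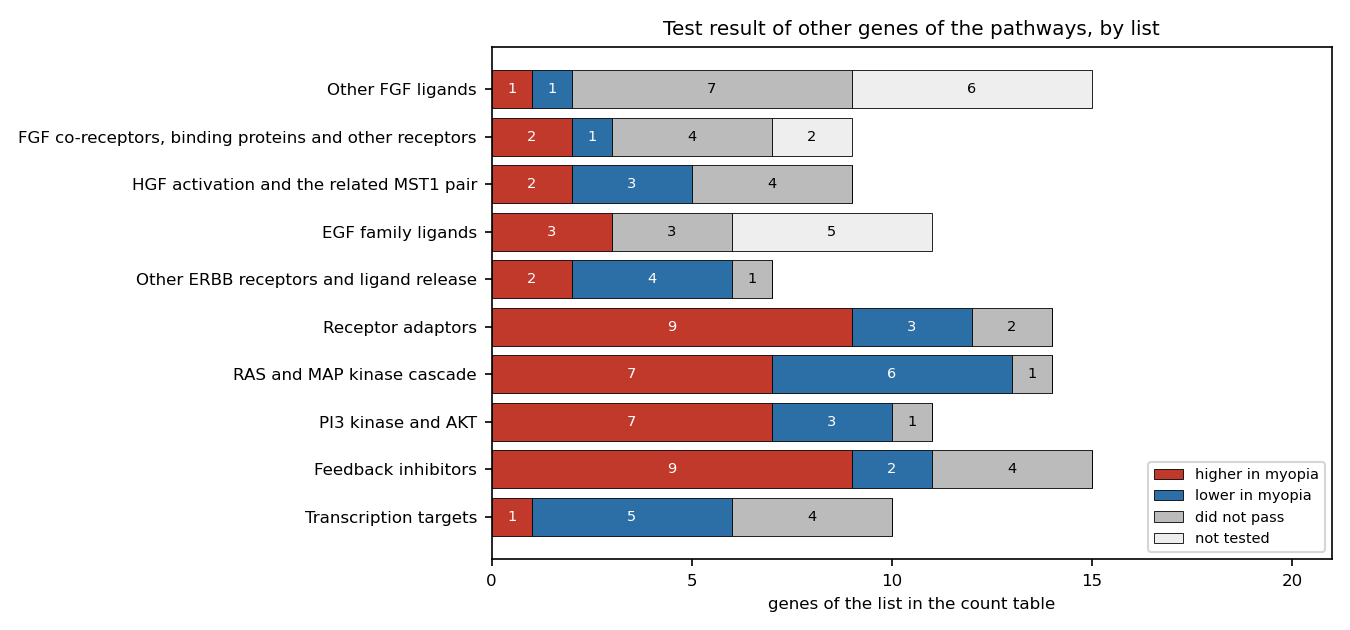
Number of genes (x axis) in each list of other pathway genes that were higher in myopia (red), lower in myopia (blue), did not pass the test (grey) or were too low to be tested (pale), relative to the TMM scale at an adjusted p under 0.05 (5 libraries per group). Receptor adaptors (9 of 14) and feedback inhibitors (9 of 15) hold the most higher calls, and transcription targets 5 lower calls, of which 1 is left with scaling by total count. Of all genes tested, 36.9% were higher and 35.1% lower.

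Several receptors described here are also made by cells that may come along when sclera is dissected. For comparison with the marker counts below, 36.9% of all genes tested were higher and 35.1% lower with TMM factors. Surface epithelium uses FGFR2, MET and EGFR. Its marker KRT5 stood at 0.849 ± 0.135 CPM in myopia and 0.674 ± 0.242 CPM in control, and EPCAM was too low to be tested. The 12 epithelial markers summed to 19.7 to 28.8 CPM in myopia and 27.4 to 47.7 CPM in control, with 2 of 8 tested higher (CDH1 by 1.27 ± 0.35 and TP63 by 1.47 ± 0.31), 2 lower (KRT8 with -1.38 ± 0.17 and KRT18 with -1.45 ± 0.30) and 4 that did not pass. KRT8 held the largest part of these sums, at 9.82 ± 1.19 CPM in myopia and 25.6 ± 6.48 CPM in control. Their part in the results above was not tested. Of 9 endothelial markers 2 rose, 3 fell and 4 did not pass (4 higher and 0 lower with scaling by total count, 1 lower with upper quartile factors), with sums of 897 to 1314 CPM in myopia and 1130 to 1414 CPM in control. Of 5 Schwann cell markers, cells in which ERBB3 is the main neuregulin receptor, 1 rose, 2 fell and 2 did not pass (2 higher and 1 lower with scaling by total count), with sums of 2481 to 6832 CPM in myopia and 3802 to 6030 CPM in control. Of 6 macrophage markers 5 fell, with sums of 137 to 193 CPM in myopia and 322 to 421 CPM in control. All 4 red blood cell markers fell. Of 9 skeletal muscle markers 2 rose and 4 fell, of 8 retina markers 4 fell and 4 did not pass, of 6 markers of retinal pigment epithelium 2 rose and 1 fell, and of 8 fibroblast markers 2 rose and 3 fell (4 and 3 with scaling by total count). The 2 muscle genes that rose, TTN and NEB, had log2 fold changes of 2.07 ± 0.37 and 2.28 ± 0.33. The 4 that fell, ACTA1, MYH1, MYH2 and TNNC2, had -1.03, -0.97, -0.84 and -0.81. These 6 were named after their values were seen. The lower calls of skeletal muscle numbered 0 with scaling by total count and 0 without control 4 and 5, and those of retina 2 and 1. The red blood cell sums were 100.1 to 456 CPM in myopia and 2504 to 10560 CPM in control. GFAP, a marker of glia counted on the retina list, stood at 1716 ± 883 CPM in myopia and 2590 ± 481 CPM in control (SD, n = 5 each). It did not pass (adjusted p = 0.131) and was named after its value was seen. The part of these cell types, glia included, in the results was not tested either.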

How the data were processed

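The authors deposited raw counts of reads per gene symbol, with 1 column per library. RNA was extracted from sclera with a column kit and made into libraries with a SMARTer mRNA kit, per the labels' protocols. How reads were aligned, counted and assigned to genes and strands is not given in the sources used here. The submitters' processing notes name the mouse builds GRCm38 and mm10 without a role, so no coordinates or gene lengths are used. Of 18079 lines, 437 carry no symbol and were left out (0.751% to 0.824% of counts in myopia and 1.18% to 1.69% in control).

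Lines were tested separately with edgeR 4.0.16 in R 4.3.3: filterByExpr (minimum count 10), TMM factors (1.11 to 1.25 in myopia and 0.777 to 0.968 in control), glmQLFit with robust dispersion, glmQLFTest for group and Benjamini-Hochberg adjustment. The standard error is the absolute log2 fold change over the root of F. Log2 CPM used a prior count of 2, and the ratios a pseudocount of 0.5. Chi-square over its degrees of freedom was 18.1 to 117 between replicates, above counting noise, and no label names a batch. On counts simulated for the same 14683 genes and filtered again, the test called 69.0% of 100 genes changed 2-fold and 96.9% of 98 changed 4-fold. It also called 9 of 14370 unchanged genes. The simulation changed few genes, up and down alike, whereas 71.9% were called in the data, so these rates may not hold there.

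The members and lists were chosen with earlier results of these data known. Named are all members, at most 4 genes past the test per pathway list, by smallest p, and the gene nearest in profile to each member; exceptions are marked, and 2 genes the rule names are not reported here. Alternatives were other scaling factors, filters, DESeq2 1.42.0, limma-voom (limma 3.58.1), dispersion that was not robust, a replicate block, summed lines, another pseudocount for the ratios, and libraries left out.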

Additional observations from a re-analysis of the deposited data

Results flagged for a closer look

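FGF7 in myopia 2, at 9.55 CPM, stood apart from the other 4 myopia libraries, which lay between 15.1 and 17.3 CPM: its gap to the nearest of them was 0.714 of the group's range, past Dixon's critical value for 5 samples. Without that library the log2 fold change of FGF7 was 2.20, against 2.08 with it. It was the 1 flag among 26 groups examined (10 genes and 3 ratios in 2 groups), of which chance flags about 1 in 20.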

How the results depend on the processing

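Of the 10 genes, 9 kept their direction and an adjusted p under 0.05 in all 21 alternative settings. FGFR1 was the exception: its call ended in 12 settings, in 1 of which, scaling by total count, its value turned to 0.22. The count of members lower in myopia was therefore 1 with upper quartile factors, total count scaling, the replicate block, summed lines and without control 4 and 5, and 1 to 2 with a library left out. The count of members higher in myopia was 8 throughout. Between 10103 and 10958 genes passed, 10133 to 10854 with a library left out, and 2751 were lower with scaling by total count, where the values of FGFRL1 (0.11), ESYT1 (0.24), SPINT2 (0.0883), FRS3 (0.0785), GRB2 (0.0001), SHC1 (0.13), CCND1 (0.10) and PHLDA1 (0.0157) turned positive; the median of all genes moved by construction with that scaling. Of 58 other genes examined this way, 36 had the same call in all settings, and 2 more, KL and ST14, in all but the filter of 1 CPM in 5 libraries, which left them untested. Same-numbered libraries of the groups did not deviate together (correlations of -0.129 to 0.013, and none of the myopia libraries was nearest to its own number). Such correlations cannot exclude that same-numbered libraries were handled together, which the labels do not state. With the replicate block 10103 genes passed; sign flips over the 5 numbers, which cannot give an unadjusted p under 0.0625, left the FGFR2 to FGFR1 and FGFR3 to FGFR1 ratio differences of 0.59 and 0.69 at an adjusted exact p of 0.0938. With a library left out these ran from 0.54 to 0.63 and from 0.58 to 0.76, and that of MET to HGF from -0.39 to 0.0885, the last without control 1; its direction is not settled. FGF10, FGF2 and FGF7 rest on few reads in the control libraries, and a difference in splice forms or protein was not measured.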
